A study of Mus musculus with 22 samples.

Results

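Natural killer (NK) cells are lymphocytes that kill infected or transformed cells without prior sensitisation, through granules loaded with perforin and granzymes and through death ligands. Interleukin-2 (IL-2) reaches them through a receptor built from an alpha, a beta and a common gamma chain, which signals through the kinases JAK1 and JAK3 to the transcription factor STAT5. NK cells taken from the spleen die within days without such a cytokine, and IL-2 is the usual supplement that keeps them alive and cytotoxic in culture.

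The comparison set mouse splenic NK cells kept alone with IL-2 for 24 h (monoculture) against NK cells taken from the spleen and not cultured (fresh). It used 8 of the 22 libraries of the series, picked by their labels: 4 fresh and 4 monoculture libraries, each side with 2 from female donors (numbered 1 and 2) and 2 from male donors (numbered 4 and 5). The rest of the series holds NK cells cultured with the mouse pancreatic cancer line Panc02, Panc02 cells alone and Panc02 tumours grown in mice. Of these only the 2 libraries of cultured Panc02 cells were used here, as a reference for tumour-cell RNA. The labels give no strain, age or IL-2 concentration. They also do not say that each library came from its own animal, so the p-values measure the spread between these libraries, part of which may be technical. The protocol describes positively sorted NK cells whose RNA was captured on oligo(dT) beads, and RNA from cell experiments taken with a phenol reagent. Culture with IL-2 and the way RNA was extracted therefore cannot be told apart in any result given here.

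Levels are given as CPM: each gene's count was divided by the sum over all genes in the same library and expressed in parts per 1000000. Per-library values are given in the order female 1, female 2, male 4, male 5, and means with their SD over 4 libraries. A difference is a log2 fold change of monoculture over fresh with its standard error (SE), and genes are said to rise or fall only where edgeR's quasi-likelihood test gave a Benjamini-Hochberg adjusted p below 0.05.

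Library totals ran from 13025549 to 37201687 counts for fresh cells and from 14624113 to 46170885 for monocultures. The first principal component held 66.6% of the variance and separated the 2 conditions. On the 2 components that followed, monoculture female 1 stood apart from the other monocultures. The fresh libraries parted by sex on both, with -28.9 and -25.6 in females and 19.6 and 27.5 in males on the second component. The 11 NK cell markers summed to 9395.4 to 10709.0 CPM in fresh and 9303.4 to 10427.3 CPM in monoculture libraries, which overlap. Single markers were less stable than this sum: 5 of the 11 rose and 4 fell. For 9 of the 11 the 2 conditions did not overlap, against 40.7% of all genes. Of 8 T cell markers tested 3 rose (Trbc2, Trac and Cd28) and 2 fell (Cd8a and Cd3d), their sum going from 346 to 520 CPM in fresh libraries to 518 to 617 CPM in monocultures, and Cd3e, Cd5 and Foxp3 averaged under 0.3 CPM on both sides. The fall of Cd3d did not pass the test without fresh female 1 (adjusted p = 0.0792) or monoculture female 2 (adjusted p = 0.057). Markers of other spleen cells were not evenly spread: 12 of 13 erythroid, 9 of 9 platelet, 13 of 13 dendritic cell, 9 of 11 B and plasma cell and 7 of 10 endothelial markers tested fell, and none of those rose. Sums of 2 other lists rose through 1 gene each: the macrophage and monocyte sum went from 388 to 411 CPM to 800 to 998 CPM with Ccr2, and the stromal sum from 117 to 192 CPM to 242 to 380 CPM with Thy1. NK cells can express both genes, and of the other members tested 2 of 4 and 5 of 5 fell. The erythroid sum ran from 1550.4 to 2419.6 CPM in fresh libraries and from 552 to 747 CPM in monocultures. In bulk RNA, fewer cells of a type and less RNA per cell cannot be told apart. A trace of Panc02 RNA was measured with 29 genes that had at least 50 CPM in Panc02 cells and almost none in fresh NK cells. Their median level relative to Panc02 was 0%, 0.28%, 0.144% and 0.335% in the monocultures. It was 0% in all fresh libraries, where the choice of genes held it near 0, so the 2 sides are not a test.

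A large share of genes differed in level between monoculture and fresh cells, with larger falls than rises. Of 17455 genes tested, 3601 rose (20.6%) and 3677 fell (21.1%), together 41.7%. The median size of the change was 0.57 on the log2 scale among genes that rose and 1.09 among genes that fell. A change of at least 2-fold was found for 910 genes that rose and 1934 that fell, and one of at least 8-fold for 117 and 670. Tested against a minimum change of 1.5-fold, 908 genes rose (5.2%) and 1819 fell (10.4%). The lowest and the highest of the 4 levels did not overlap between conditions for 7103 genes (40.7%). Without monoculture female 1, 3447 genes rose and 3564 fell. Among the fifth of genes with the highest levels 35.4% rose and 20.9% fell, whereas among the fifth with the lowest levels 5.9% rose and 12.8% fell. For all genes tested the median log2 change was 0.01, and the lists below are read against these shares. The lists were chosen with earlier results of these data known, so setting them beside these shares is a description and not a test.

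**Figure D1:**
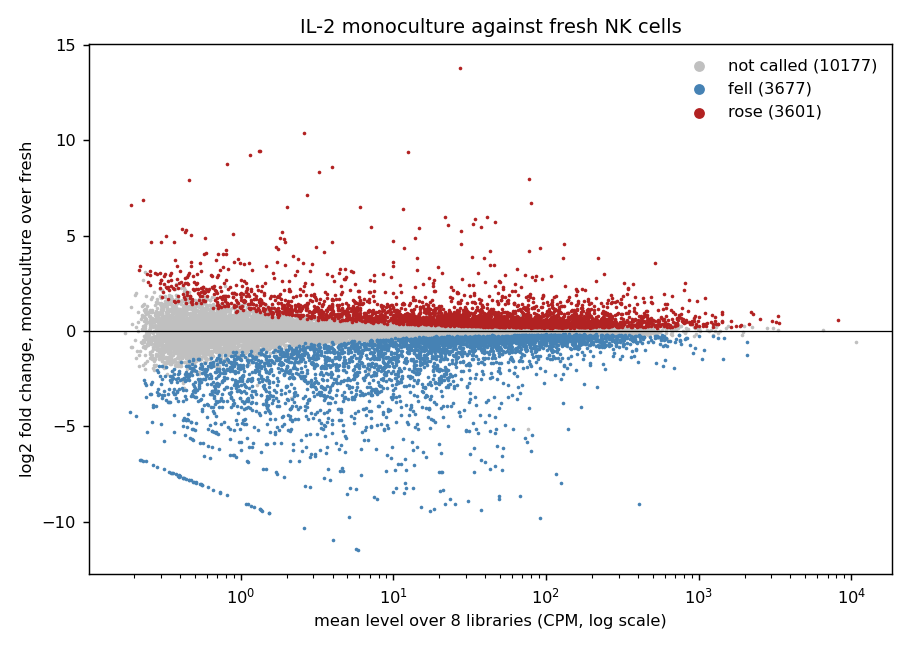
Each point is 1 of 17455 genes, placed by its mean level over the 8 libraries (x axis, CPM, log scale) and its log2 fold change of monoculture over fresh (y axis). Genes that rose (3601) are red, genes that fell (3677) blue and the rest grey; among genes of at least 8-fold change, 670 fell and 117 rose. Genes with no count on 1 side form the slanted rows of points, where the fitted value is no measure of size.

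In the IL-2 receptor pathway the genes of the beta and gamma chains and of feedback inhibitors rose, and Jak3, Stat5a and Stat5b fell. Of its 22 members 17 rose and 3 fell, with a median log2 change of 1.03, against 20.6% and 21.1% of all genes. Il2rb, the beta chain, stood at 2316, 2340, 2702 and 2879 CPM in fresh cells and at 3858, 4289, 4014 and 4293 CPM in monoculture. The groups did not overlap (log2 change 0.78 ± 0.08 SE, adjusted p = 5.75e-06), and no other pathway gene gained more CPM than it. Il2rg, the common gamma chain, rose by a smaller amount, from 509 to 588 CPM on average (0.30 ± 0.08). In contrast Jak3, the kinase bound to the gamma chain, fell from 174, 148, 151 and 153 CPM to 64.5, 75.6, 70.7 and 68.1 CPM (-1.07 ± 0.08, adjusted p = 1.32e-07). Stat5a (-0.56 ± 0.07) and Stat5b (-0.29 ± 0.07) also fell, although Stat5b did not pass the test in the female libraries alone (-0.14, adjusted p = 0.257). Jak1, with 1443.5 and 1239.2 CPM, did not pass the test (adjusted p = 0.159), although it did in the male libraries alone (-0.25, adjusted p = 0.0128).

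Feedback inhibitors of this pathway, which STAT5 is known to induce, were among the larger rises of the list. Cish, an SH2 protein that damps IL-2 receptor signalling, went from 18.9, 18.7, 20.8 and 26.0 CPM to 150, 154, 131 and 125 CPM (2.81 ± 0.12). Socs3, of the same family, went from 14.6, 20.2, 16.7 and 19.6 CPM to 46.8, 51.8, 47.4 and 44.1 CPM (1.51 ± 0.11), and the groups of neither gene overlapped. Among survival and effector genes of the list, the kinase gene Pim2 (2.18 ± 0.13), the cytokine gene Osm (1.84 ± 0.14) and the costimulatory receptor gene Tnfrsf9 (1.52 ± 0.10) rose, while Tnfrsf4, a related receptor, stayed at 6.77 and 6.89 CPM on average (adjusted p = 0.646).

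The promoter of Cish is shown because it holds a pair of matches to the STAT site TTCNNNGAA next to each other. It is RefSeq's window of 250 bases before to 50 after the gene start, 5′ to 3′, on build GRCm38.p6 (chr9:107296409-107296708, + strand), with the matches in capitals.
Cish: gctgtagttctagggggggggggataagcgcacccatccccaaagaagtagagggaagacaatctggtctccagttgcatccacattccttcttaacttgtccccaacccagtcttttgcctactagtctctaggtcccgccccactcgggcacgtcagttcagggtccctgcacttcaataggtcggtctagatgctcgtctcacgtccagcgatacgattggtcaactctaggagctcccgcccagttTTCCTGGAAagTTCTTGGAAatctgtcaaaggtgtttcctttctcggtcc
Both matches lie within the first bases after RefSeq's gene start, at offsets 0 and 11. The motif was searched on both strands. It was present for 4 of the 18 listed genes with a RefSeq entry, all 4 among the 13 that rose, and for 9.55% of all 27025 genes in the promoter table, so a match is a description of the letters and not of STAT5 binding. For Cish, and for Aars shown further on, RefSeq's start was not found at a GENCODE transcript start.

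Genes that make, import and load amino acids onto tRNA rose together. ATF4 is the transcription factor that cells translate when amino acids run short or the endoplasmic reticulum is stressed, and it turns on amino acid synthesis, import and tRNA charging. Of 25 ATF4 targets tested 22 rose and none fell, with a median log2 change of 1.74. Atf4 itself rose from 209, 228, 205 and 202 CPM to 619, 668, 696 and 651 CPM (1.74 ± 0.07), and the groups did not overlap. The enzymes that carry 1-carbon units on folate in mitochondria rose further: Mthfd2 went from 17.9, 15.7, 19.6 and 18.9 CPM to 233, 243, 244 and 247 CPM (3.83 ± 0.08, adjusted p = 2.47e-12). Shmt2, which splits serine in the same pathway, rose from 124 ± 8.13 to 565 ± 29.7 CPM (SD, n = 4) (2.27 ± 0.07). The serine synthesis genes Psat1 (2.07 ± 0.09), Phgdh (1.49 ± 0.08) and Psph (0.79 ± 0.09) rose, as did Pycr1 of proline synthesis, from 0.642 to 28.7 CPM on average. Asns, the asparagine synthetase gene, rose by a smaller amount, from 47.9 to 103 CPM (1.19 ± 0.12). Ddit4, an inhibitor of mTORC1, stood at 114 and 109 CPM (adjusted p = 0.965), although it rose in the female libraries alone (0.47, adjusted p = 0.00705).

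Amino acid transporters gave the largest contrast within a family, which rested on 1 member that fell. Of 15 tested 11 rose and 1 fell, with a median log2 change of 1.46. The glycine transporter Slc6a9 was at 0.900, 0.768, 1.70 and 1.72 CPM in fresh cells and at 87.6, 79.3, 86.0 and 68.9 CPM in monoculture (6.00 ± 0.20, adjusted p = 1.8e-10). The neutral amino acid transporter Slc1a4 moved alike, from 1.13, 1.38, 2.55 and 2.23 CPM to 90.9, 101, 83.4 and 90.4 CPM (5.71 ± 0.20). The groups overlapped for neither gene. The partners of the large neutral amino acid transporter, Slc7a5 (85.4 to 956 CPM, 3.58 ± 0.08) and Slc3a2 (120 to 626 CPM, 2.48 ± 0.07), and the cationic transporter Slc7a1 (62.6 to 365 CPM, 2.63 ± 0.09), rose as well. The single member that fell was Slc43a1, another carrier of large neutral amino acids, from 27.7, 31.0, 35.5 and 36.2 CPM to 0.274, 0.277, 0.390 and 0.281 CPM (-6.59 ± 0.19, adjusted p = 1.76e-11). The part of other spleen cells in its fall was not tested. Slc7a11, the cystine carrier often used as an ATF4 and NRF2 readout, remained near 1 CPM on both sides (1.06 and 0.963 CPM, adjusted p = 0.970).

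The 20 cytosolic aminoacyl-tRNA synthetases, which attach each amino acid to its tRNA, separated into a group that rose and a group that did not. There were 12 that rose, by 1.24 to 2.53 on the log2 scale. The other 8 lay between -0.50 and 0.03, and 4 of them fell. Aars, for alanine, went from 104, 104, 95.8 and 102 CPM to 536, 573, 530 and 555 CPM (2.53 ± 0.07). Cars, for cysteine, went from 52.2, 45.8, 43.5 and 43.3 CPM to 210, 237, 223 and 210 CPM (2.34 ± 0.08). Both lay far outside the spread of the fresh libraries. Sars (1.81 ± 0.13), Yars (1.80 ± 0.08), Mars, Lars, Nars, Gars, Tars, Iars, Wars and Eprs (1.24 ± 0.06) were the other 10. Farsa, the catalytic subunit for phenylalanine, went the other way, from 84.1, 86.3, 88.2 and 84.9 CPM to 53.7, 54.3, 65.5 and 54.2 CPM (-0.50 ± 0.08, adjusted p = 0.000203). Kars, Hars and Dars also fell, by 0.32 to 0.43, and Vars, Rars and Farsb did not pass the test. Qars passed it only among the fits without fresh female 1 (-0.19, adjusted p = 0.0371) or with male libraries alone (-0.23, adjusted p = 0.0262).

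**Figure D2:**
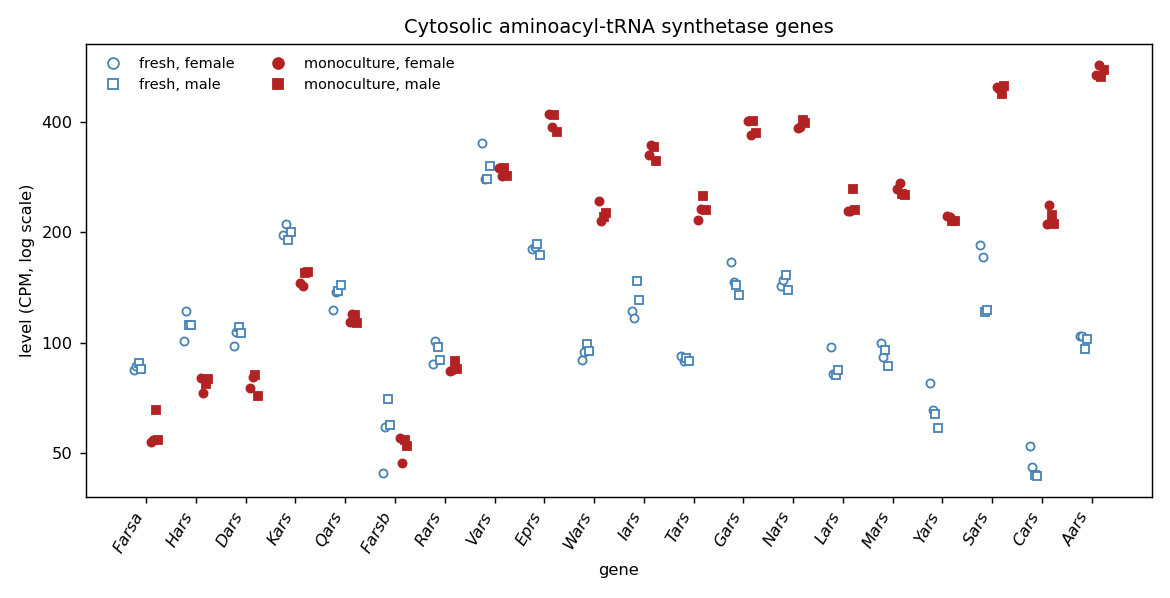
Level of the 20 cytosolic aminoacyl-tRNA synthetase genes (CPM, log scale) in each of 4 fresh (open symbols) and 4 monoculture (filled symbols) libraries, with circles for female and squares for male donors. Genes are ordered by log2 change; the 12 on the right (1.24 to 2.53) do not overlap between conditions, and Farsa, at the left end, lies lower in all 4 monocultures.

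Promoters of 3 of these genes (Aars, Yars and Farsa) are shown beside those of Trib3 and Chac1, ATF4 targets that rose. They show how 1 short motif was spread over synthetase genes that rose and that did not. The letters searched were TGATGNAA on either strand, the core shared by amino acid response elements, in RefSeq's windows of 300 bases (250 before to 50 after the gene start, build GRCm38.p6). The genes lie at chr2:152344011-152344310 (Trib3, - strand), chr2:119350992-119351291 (Chac1, + strand), chr8:111033592-111033891 (Aars, + strand), chr4:129189653-129189952 (Yars, + strand) and chr8:84856736-84857035 (Farsa, + strand). Sequences run 5′ to 3′ along the gene with matches in capitals.
Trib3: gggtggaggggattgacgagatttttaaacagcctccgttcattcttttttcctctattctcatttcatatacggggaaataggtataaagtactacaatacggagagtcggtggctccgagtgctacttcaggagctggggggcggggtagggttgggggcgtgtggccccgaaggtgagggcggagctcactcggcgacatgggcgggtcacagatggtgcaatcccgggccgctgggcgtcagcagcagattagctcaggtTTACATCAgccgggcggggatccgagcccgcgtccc
Chac1: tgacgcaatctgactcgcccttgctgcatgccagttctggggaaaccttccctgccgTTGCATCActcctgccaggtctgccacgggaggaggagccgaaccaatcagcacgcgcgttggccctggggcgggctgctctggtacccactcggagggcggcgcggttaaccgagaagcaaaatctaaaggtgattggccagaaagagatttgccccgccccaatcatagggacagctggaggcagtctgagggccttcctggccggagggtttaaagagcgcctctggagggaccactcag
Aars: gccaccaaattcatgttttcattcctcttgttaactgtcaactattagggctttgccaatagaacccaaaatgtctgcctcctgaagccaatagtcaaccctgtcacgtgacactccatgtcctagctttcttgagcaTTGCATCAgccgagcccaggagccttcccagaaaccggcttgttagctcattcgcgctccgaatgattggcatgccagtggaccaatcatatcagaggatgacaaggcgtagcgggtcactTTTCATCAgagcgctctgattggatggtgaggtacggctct
Yars: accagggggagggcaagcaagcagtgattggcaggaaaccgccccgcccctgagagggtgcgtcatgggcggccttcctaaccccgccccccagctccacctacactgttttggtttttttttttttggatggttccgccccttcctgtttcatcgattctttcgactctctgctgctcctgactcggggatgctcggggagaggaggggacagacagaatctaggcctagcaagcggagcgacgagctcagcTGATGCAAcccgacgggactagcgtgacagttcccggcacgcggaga
Farsa: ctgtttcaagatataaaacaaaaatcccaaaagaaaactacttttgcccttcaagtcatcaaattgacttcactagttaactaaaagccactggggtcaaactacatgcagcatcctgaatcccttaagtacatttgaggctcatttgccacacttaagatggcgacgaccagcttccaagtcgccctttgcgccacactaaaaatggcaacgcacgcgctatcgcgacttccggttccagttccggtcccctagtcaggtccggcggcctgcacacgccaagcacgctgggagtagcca
The Aars window holds 2 matches, those of Trib3, Chac1 and Yars 1 each, and that of Farsa none. Of the synthetase genes that rose 7 had a RefSeq entry, and 5 of these held the motif (Aars, Gars, Iars, Tars and Yars). None of the 5 entries of synthetase genes that did not rise held it. Over all 27025 genes with promoters considered, 4.51% had a match. In the ATF4 list 6 of the 20 genes that rose and had an entry held it, and 14 did not. Of the 4 ATF4 list entries not called higher 2 held it. Among amino acid transporters 1 of 7 entries that rose and 2 of 4 that did not rise held it. A window without these letters says nothing of a site elsewhere.

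Antioxidant genes under NRF2, the factor that is freed from KEAP1 by oxidative or electrophilic stress, rose in most cases. Of 21 tested 15 rose and 3 fell, with a median log2 change of 0.79. Hmox1, which breaks down haem, went from 1.91, 1.54, 1.35 and 0.941 CPM to 83.0, 61.1, 54.7 and 61.6 CPM (5.60 ± 0.21, adjusted p = 3.49e-10). Osgin1 moved alike, from 0.900, 0.998, 0.502 and 0.538 CPM to 45.5, 51.7, 35.9 and 38.4 CPM (6.00 ± 0.21). The groups did not overlap for either gene. The ferritin light chain gene Ftl1 (311 to 1037.2 CPM, 1.83 ± 0.08), the autophagy receptor gene Sqstm1 (255 to 932 CPM, 1.96 ± 0.08) and thioredoxin reductase Txnrd1 (117 to 415 CPM, 1.91 ± 0.10) rose too. The enzymes of the pentose phosphate pathway on the list, Tkt (-0.91 ± 0.08) and Taldo1 (-0.68 ± 0.07), fell. Of a list for the aryl hydrocarbon receptor, which was drawn up after these values were seen, Ahr (7.92 to 48.8 CPM on average) and its repressor Ahrr (0.117 to 11.9 CPM) rose, while its best-known target Cyp1a1 averaged under 1 CPM on both sides.

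Cytosolic heat shock genes fell as a block. Of 16 tested 15 fell and none rose, with a median log2 change of -0.90. Hspa8, the constitutive HSP70, fell from 3307, 2908, 3131 and 2553 CPM to 1303, 1039, 1162 and 1163 CPM (-1.26 ± 0.09), the largest loss of CPM of any gene under the naming rule. Hsp90aa1 fell from 885, 745, 1178 and 890 CPM to 264, 224, 245 and 239 CPM (-1.84 ± 0.12, adjusted p = 8.01e-08). The fresh libraries lay above the monocultures for both. The inducible Hspa1b and Hspa1a, near-identical copies that share reads, fell by 3.29 and 2.71 on the log2 scale. Chaperones of the endoplasmic reticulum did not follow: 9 of 20 rose and 2 fell, and the main HSP70 of that organelle, Hspa5, stood at 408, 404, 433 and 424 CPM in fresh cells and 365, 329, 379 and 354 CPM in monoculture (-0.13 ± 0.07, adjusted p = 0.130). The ones that rose most were Herpud1, of the degradation complex (129 to 268 CPM, 1.15 ± 0.06), and Xbp1, a transcription factor of the unfolded protein response (1.03 ± 0.09).

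Glycolysis genes moved in both directions. Of 21 glycolysis genes 7 rose and 9 fell, with a median log2 change of 0.03. The isoforms of phosphofructokinase moved apart: Pfkm fell from 35.0, 37.3, 44.1 and 40.5 CPM to 6.22, 5.76, 7.06 and 5.41 CPM (-2.59 ± 0.13), whereas Pfkp rose from 247, 228, 243 and 242 CPM to 585, 642, 698 and 648 CPM (1.51 ± 0.07). Neither pair of groups overlapped. The aldolase gene Aldoa rose (1.44 ± 0.07), and the lactate carrier Slc16a1 (-2.19 ± 0.15), the hexokinase Hk1 (-1.15 ± 0.07) and the lactate dehydrogenase Ldha (-0.54 ± 0.07) fell. Of 15 genes of the hypoxia response 6 rose and 2 fell, led by Vegfa (16.0 to 76.1 CPM, 2.35 ± 0.13). Nuclear subunits of oxidative phosphorylation changed little: 9 of 23 fell and 1 rose, and none passed the test against a minimum change of 1.5-fold.

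Most genes of cholesterol synthesis rose and most of fatty acid synthesis fell. Of 20 genes of cholesterol synthesis and uptake 13 rose and 3 fell (median 0.61). Among the rises were Srebf2, their main transcription factor (95.4 to 168 CPM, 0.90 ± 0.07), Cyp51 (1.28 ± 0.15) and Lss (1.11 ± 0.09), and Sqle (-0.72 ± 0.16) was among the falls. Cholesterol export under the sterol sensor LXR fell in 5 of 8 genes: the exporter Abca1 went from 57.5, 57.7, 56.0 and 58.7 CPM to 6.02, 8.11, 3.10 and 5.60 CPM (-3.25 ± 0.23, adjusted p = 4.64e-07). Every fresh library lay above every monoculture for it. Fatty acid synthesis genes fell in 9 of 12 cases. The desaturases led: Fads2 went from 25.7, 32.0, 31.2 and 41.6 CPM to 0.410, 1.91, 1.08 and 3.47 CPM (-4.05 ± 0.46), and Scd2 from 161 ± 13.4 to 35.2 ± 2.34 CPM (SD, n = 4) (-2.10 ± 0.08), whereas Fasn, the synthase itself, fell by a smaller amount (-0.34 ± 0.07).

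Ribosome production and ribosomal proteins parted. Of 30 genes of ribosome biogenesis and the MYC network 25 fell and 1 rose (median -0.38). Srm, which makes the polyamine spermidine, fell from 108, 105, 111 and 98.1 CPM to 35.1, 27.5, 36.7 and 32.1 CPM (-1.59 ± 0.09). The nucleolar proteins Ncl (-0.74 ± 0.10) and Npm1 (-0.73 ± 0.10) fell by smaller amounts, and Myc itself was at 180 and 151 CPM (adjusted p = 0.239), although without monoculture male 4 its fall passed the test (-0.27, adjusted p = 0.0342). Of 24 cytosolic ribosomal protein genes 20 rose and 1 fell (median 0.38). Rpl5 rose most, from 947, 922, 927 and 882 CPM to 1558, 1433, 1631 and 1567 CPM (0.84 ± 0.07), with no overlap. These genes have many processed copies that share reads, so their single values are uncertain. Of the mTORC1 regulators 5 of 19 rose (26.3%) and 3 fell (15.8%), near the 20.6% and 21.1% of all genes. The inhibitors Pik3ip1 (36.5 to 7.71 CPM, -2.17 ± 0.22) and Deptor (9.65 to 2.83 CPM, -1.69 ± 0.20) fell, and Sesn2, which senses leucine, rose (24.0 to 78.3 CPM, 1.80 ± 0.07).

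Proliferation genes fell. Of 33 genes of the cell cycle and DNA replication 29 fell and 1 rose, with a median log2 change of -1.68. Mki67, a marker of cycling cells, fell from 274, 263, 356 and 353 CPM to 55.2, 27.1, 49.2 and 41.4 CPM (-2.77 ± 0.22, adjusted p = 1.14e-05). The mitotic cyclin gene Ccnb1 fell from 18.9, 34.3, 52.2 and 42.2 CPM to 4.65, 2.68, 4.35 and 4.29 CPM (-3.13 ± 0.31). All fresh values of both genes lay above all monoculture values. The gene that rose was Ccnd2, the cyclin D of IL-2 signalling (644 to 928 CPM, 0.62 ± 0.07), and Ccnd3 (451 and 448 CPM) did not pass the test. Erythroid markers moved with this list: the erythroid factors Klf1 (74.5 to 0.0888 CPM) and Gata1 (74.7 to 0.591 CPM) fell, and 12 of 13 erythroid markers fell with it. The part of dividing erythroid or other cells in the fall of cell cycle genes was not tested. Among inhibitors of the cycle Rb1 (0.75 ± 0.11) and Cdkn1b (0.49 ± 0.08) rose.

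Members that block and members that promote death rose within the BCL2 family, which sets the threshold for mitochondrial cell death. Of 16 members tested 7 rose and 2 fell. Bcl2, its founding inhibitor of death, rose from 225, 192, 280 and 305 CPM to 1386, 1439, 1309.5 and 1358 CPM (2.54 ± 0.13). The BH3-only genes that oppose it also rose: Bbc3 from 34.6, 43.8, 32.6 and 30.3 CPM to 112, 126, 114 and 115 CPM (1.82 ± 0.10), and Bcl2l11 from 137, 141, 172 and 228 CPM to 407, 509, 392 and 484 CPM (1.49 ± 0.16). No group overlapped for these 3 genes. Pmaip1, another BH3-only gene, fell (-0.98 ± 0.17), and Mcl1, which NK cells need to live, stood at 462 and 430 CPM (adjusted p = 0.931). Of 20 targets of p53 13 rose and 2 fell; Plk2 (1.88 to 18.1 CPM, 3.39 ± 0.19) followed Cdkn1a in size.

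Cytokine and chemokine genes rose with 1 exception. Of 12 tested 11 rose and 1 fell (median 1.58), and the groups of none of the 12 overlapped. The macrophage-attracting chemokine gene Ccl3 rose from 41.0, 57.7, 77.0 and 61.4 CPM to 176, 224, 333 and 293 CPM (2.21 ± 0.25). Xcl1, which attracts cross-presenting dendritic cells, rose from 48.7, 61.1, 53.2 and 51.7 CPM to 127, 106, 155 and 161 CPM (1.45 ± 0.12), and Flt3l, a growth factor of the same cells, from 66.3 to 179 CPM on average (1.53 ± 0.11). Tgfb1 rose from 269, 247, 252 and 276 CPM to 670, 771, 620 and 784 CPM (1.54 ± 0.09). The exception was Ccl5, a chemokine stored as message in resting cytotoxic cells, which fell from 1796, 2266, 2408 and 2153 CPM to 559, 709, 737 and 871 CPM (-1.49 ± 0.13, adjusted p = 1.13e-06).

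The killing machinery split. Of 15 granule genes 7 rose and 5 fell (median -0.03). Perforin, Prf1, fell from 1196, 1207, 1281 and 1440 CPM to 472, 528, 576 and 619 CPM (-1.13 ± 0.09). The granzymes Gzmb (515 to 1445 CPM, 1.58 ± 0.20), Gzmk (4.57 to 17.8 CPM, 2.04 ± 0.30) and Gzma (2794.9 to 3667.6 CPM, 0.48 ± 0.09) rose. Of the genes for granule release, Rab27a, which docks granules (165 to 100 CPM, -0.62 ± 0.14), and Stx11, a fusion protein (85.7 to 53.4 CPM, -0.59 ± 0.09), fell. Unc13d, which primes granules for fusion, was slightly higher (212 to 234 CPM, 0.24 ± 0.08, adjusted p = 0.0329), a call that DESeq2 did not make (adjusted p = 0.0529) and that was lost without monoculture female 2, male 4 or male 5 or fresh male 4 or male 5 (adjusted p from 0.0607 to 0.0941). Stxbp2, of the same step, stood at 157 and 145 CPM and did not pass the test. Srgn, the proteoglycan that packs granzymes, rose (239 to 516 CPM, 1.20 ± 0.11). Among 7 death ligands 6 rose. Tnfsf14 alone fell, from 55.9, 48.8, 58.2 and 58.5 CPM to 12.3, 16.7, 18.8 and 16.6 CPM (-1.68 ± 0.12), while Lta went from 1.22 to 6.92 CPM (2.61 ± 0.23).

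**Figure D3:**
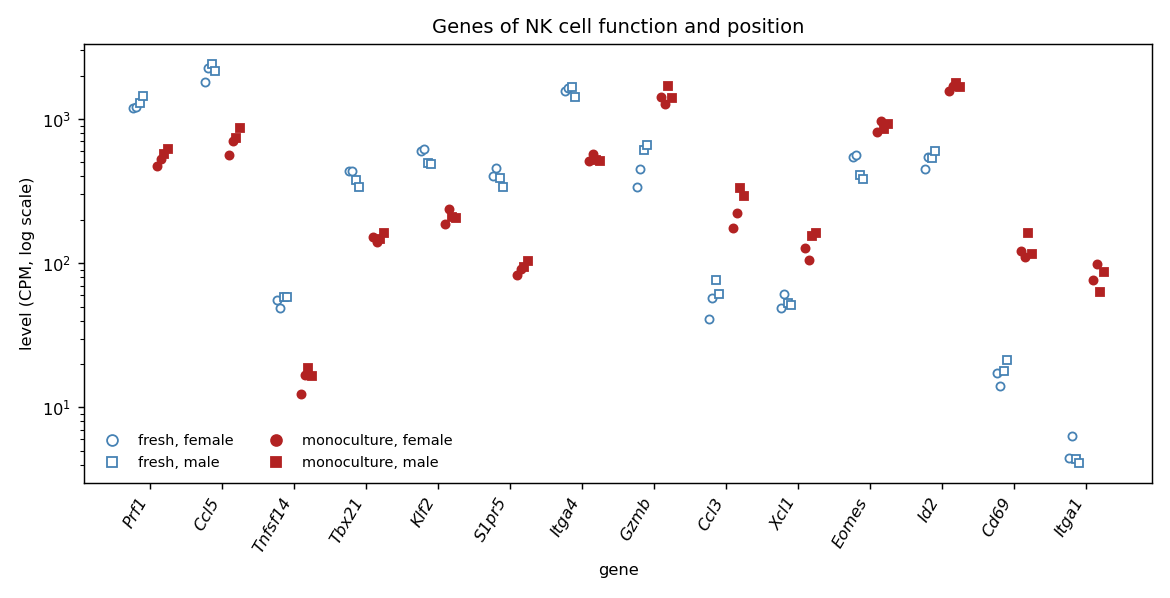
Level (CPM, log scale) of 14 genes of NK function and position in each of 4 fresh (open) and 4 monoculture (filled) libraries, circles for female and squares for male donors. Prf1, Ccl5, Tnfsf14, Tbx21, Klf2, S1pr5 and Itga4 lie lower in every monoculture, and Gzmb, Ccl3, Xcl1, Eomes, Id2, Cd69 and Itga1 higher.

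Receptors of NK cells moved in both directions. Of 19 activating receptors and adaptors 5 rose (26.3%) and 6 fell (31.6%), near the 20.6% and 21.1% of all genes. Slamf7, a self-ligand receptor, fell from 139, 130, 123 and 125 CPM to 51.8, 37.9, 55.5 and 47.4 CPM (-1.33 ± 0.10). Klrc2 (518 to 255 CPM, -0.93 ± 0.10) and Cd226 (44.6 to 25.4 CPM, -0.73 ± 0.13) fell too. The signalling adaptor Fcer1g rose from 422, 567, 496 and 482 CPM to 1018, 1092, 1039 and 1100 CPM (1.20 ± 0.08). Of 15 inhibitory receptors 7 rose and 6 fell. Klrb1b (143 to 331 CPM, 1.29 ± 0.09) and Cd96 (66.7 to 168 CPM, 1.43 ± 0.09) rose, while Lair1, a collagen receptor, fell (24.7 to 12.1 CPM, -0.94 ± 0.12).

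The Ly49 receptors, which bind MHC class I molecules, changed by small amounts and share reads among near-identical copies. Of 10 tested 4 rose and 2 fell. Klra9 rose from 367, 403, 276 and 251 CPM to 510, 524, 531 and 501 CPM (0.77 ± 0.12), and Klra8 fell from 958, 1060, 977 and 893 CPM to 464, 489, 703 and 602 CPM (-0.69 ± 0.12). Genes of their class I ligands rose: H2-K1 (0.44 ± 0.06), H2-D1 (0.52 ± 0.06) and B2m (0.61 ± 0.08), within a list in which 6 of 12 genes of class I presentation rose and 1 fell.

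Cytokine receptors other than for IL-2 were as often lower as higher: of 20 tested 7 rose and 6 fell. Il1rl1, the IL-33 receptor that marks type 2 innate lymphoid cells, went from 25.6, 27.8, 46.1 and 43.6 CPM to 2.19, 4.57, 1.15 and 1.57 CPM (-3.84 ± 0.44). Ifngr2, a chain of the interferon gamma receptor, went from 8.95, 11.1, 10.5 and 8.87 CPM to 1.09, 0.719, 0.758 and 0.867 CPM (-3.45 ± 0.21). Neither gene's groups overlapped. Il12rb1, the chain shared by the receptors for IL-12 and IL-23, rose (40.8 to 74.0 CPM, 0.95 ± 0.11), and the 2 chains of the IL-18 receptor moved apart by small amounts, Il18r1 upwards (0.36 ± 0.06) and Il18rap downwards (-0.36 ± 0.08).

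Transcription factors that set NK cell maturity changed in opposite directions. Of 27 lineage factors 10 rose and 5 fell (median 0.08). Eomes rose from 543, 559, 411 and 385 CPM to 812, 967, 848 and 923 CPM (1.00 ± 0.12), and its T-box relative Tbx21, of terminal maturation, fell from 434, 437, 376 and 340 CPM to 152, 141, 146 and 161 CPM (-1.31 ± 0.09). Id2, which innate lymphoid cells need, rose from 448, 544, 538 and 595 CPM to 1555, 1697, 1783 and 1667 CPM (1.75 ± 0.09). Zfp683, encoding the tissue-residency factor HOBIT, rose from 2.14, 0.921, 1.35 and 0.887 CPM to 6.36, 8.61, 9.72 and 8.53 CPM (2.71 ± 0.29). Nfil3 (37.6 to 120 CPM, 1.76 ± 0.10) and Bhlhe40 (152 to 414 CPM, 1.54 ± 0.07) rose, and Klf2, which holds lymphocytes in circulation, fell (549 to 210 CPM, -1.30 ± 0.10), as did Zeb2 (192 to 95.7 CPM, -0.91 ± 0.08).

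Several receptors of circulation fell and several markers of tissue residency rose. Of 23 genes on the list for maturation, homing and residency 11 rose and 10 fell. S1pr5, the lipid receptor through which NK cells leave tissue, fell from 401, 458, 388 and 335 CPM to 82.6, 90.6, 93.4 and 104 CPM (adjusted p = 2.61e-09). Cxcr4, a chemokine receptor for bone marrow, fell from 170 to 60.9 CPM (-1.39 ± 0.16). Of the residency genes Itga1, encoding CD49a, rose from 4.47, 6.30, 4.40 and 4.14 CPM to 76.9, 98.0, 62.7 and 87.1 CPM (4.20 ± 0.16), and Cd69, which holds S1P receptors back, from 17.4, 14.0, 18.0 and 21.3 CPM to 122, 111, 161 and 116 CPM (2.92 ± 0.15). The inflammatory chemokine receptor Ccr2 (341 to 856 CPM, 1.42 ± 0.09) rose. S1pr1, another receptor for the lipid of S1pr5, rose. The mean level of S1pr1 went from 52.9 to 80.8 CPM (0.70 ± 0.12), although it did not pass the test in the male libraries taken alone (0.66, adjusted p = 0.0905). The integrin chains Itga4 (-1.48 ± 0.07) and Itgb2 (1467.2 to 689 CPM) were among the 8 largest losses of CPM.

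Feedback genes of TGF-beta, gathered in a list after their values had been seen, rose in 8 of 11 cases. Pmepa1, which blocks SMAD signalling, went from 1.04, 1.23, 1.31 and 2.47 CPM to 152, 179, 129 and 172 CPM (6.73 ± 0.24). The inhibitors Ski (148 to 529 CPM, 1.93 ± 0.09), Skil (72.6 to 208 CPM, 1.61 ± 0.08) and Smad7 (51.1 to 120 CPM, 1.32 ± 0.11) rose with it, and the signal transducer Smad3, which is not on that list, fell (-0.47 ± 0.07). The ligand gene Tgfb1 is given above.

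Signs of recent stimulation differed between families. Of 22 immediate early genes 17 rose and none fell (median 0.82). Egr2 rose from 6.02, 6.68, 7.87 and 9.41 CPM to 60.2, 82.0, 90.4 and 79.8 CPM (3.46 ± 0.16), and Egr1 from 22.0, 18.6, 40.2 and 38.7 CPM to 234, 517, 590 and 295 CPM (3.85 ± 0.45). Fos and Jun, the classical pair of this class, did not pass the test (adjusted p = 0.464 and 0.868). Of 17 NF-kB subunits and feedback genes 4 rose (23.5%) and 5 fell (29.4%), near the 20.6% and 21.1% of all genes. Nfkbia, the inhibitor that NF-kB itself induces, fell (-0.40 ± 0.09), and Tnfaip3, another, was at 68.6 and 62.7 CPM (adjusted p = 0.799). Glucocorticoid targets fell in 7 of 10 cases (median -0.92): Tsc22d3 fell from 212, 187, 248 and 316 CPM to 97.0, 110, 104 and 114 CPM (-1.09 ± 0.14), and Fkbp5 from 204 to 110 CPM on average (-0.80 ± 0.19). Of 15 clock genes 5 rose and 3 fell, and Ciart, a repressor of the clock, rose from 1.41, 0.154, 1.43 and 0.726 CPM to 42.3, 46.4, 51.8 and 39.5 CPM (5.55 ± 0.32).

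Genes induced by type I interferon fell. Of 30 tested 24 fell and 3 rose, with a median log2 change of -1.32. Oas3, a sensor of double-stranded RNA, went from 18.0, 18.5, 16.9 and 16.6 CPM to 0.957, 0.111, 1.02 and 1.43 CPM (-4.20 ± 0.45). Irf7, which amplifies the response, went from 73.9, 83.8, 60.4 and 59.7 CPM to 29.3, 31.9, 29.4 and 27.2 CPM (-1.14 ± 0.11). Both were lower in all 4 monocultures. The receptor chains Ifnar1 (0.65 ± 0.07) and Ifnar2 (0.58 ± 0.08) rose. Genes induced by interferon gamma did not follow: of 18 tested 7 rose and 1 fell, with Gbp7 (115 to 202 CPM, 0.91 ± 0.06) and Irgm2 (42.2 to 70.9 CPM, 0.84 ± 0.11) among the GTPases that rose, and Ciita, the class II transactivator that dendritic and B cells express, as the 1 that fell (8.01 to 1.73 CPM). Dendritic cell markers moved with the interferon genes, from sums of 1406 to 1679.5 CPM in fresh libraries to 591 to 675 CPM in monocultures. Bst2, which fell, is on both lists, so they are not independent. The part of dendritic cells in the fall of interferon genes was not tested.

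The promoter of Isg15, a ubiquitin-like protein of this response (7.25 to 2.36 CPM, -1.51 ± 0.22), is shown as an example of the interferon response element. The RefSeq window (chr4:156200769-156201068, - strand, GRCm38.p6) held 3 overlapping matches to a core of GAAA, any 2 bases and GAAA again, in capitals.
Isg15: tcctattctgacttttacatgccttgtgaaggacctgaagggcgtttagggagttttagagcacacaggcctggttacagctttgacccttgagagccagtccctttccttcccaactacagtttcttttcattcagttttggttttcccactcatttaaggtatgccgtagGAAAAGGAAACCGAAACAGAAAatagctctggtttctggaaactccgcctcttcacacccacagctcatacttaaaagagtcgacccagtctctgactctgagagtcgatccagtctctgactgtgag
Of the 22 interferon genes with an entry 13 had a match on either strand, against 3.99% of all genes in the promoter table. Among the 17 that fell it was 9, so genes with and without these letters fell.

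**Figure D4:**
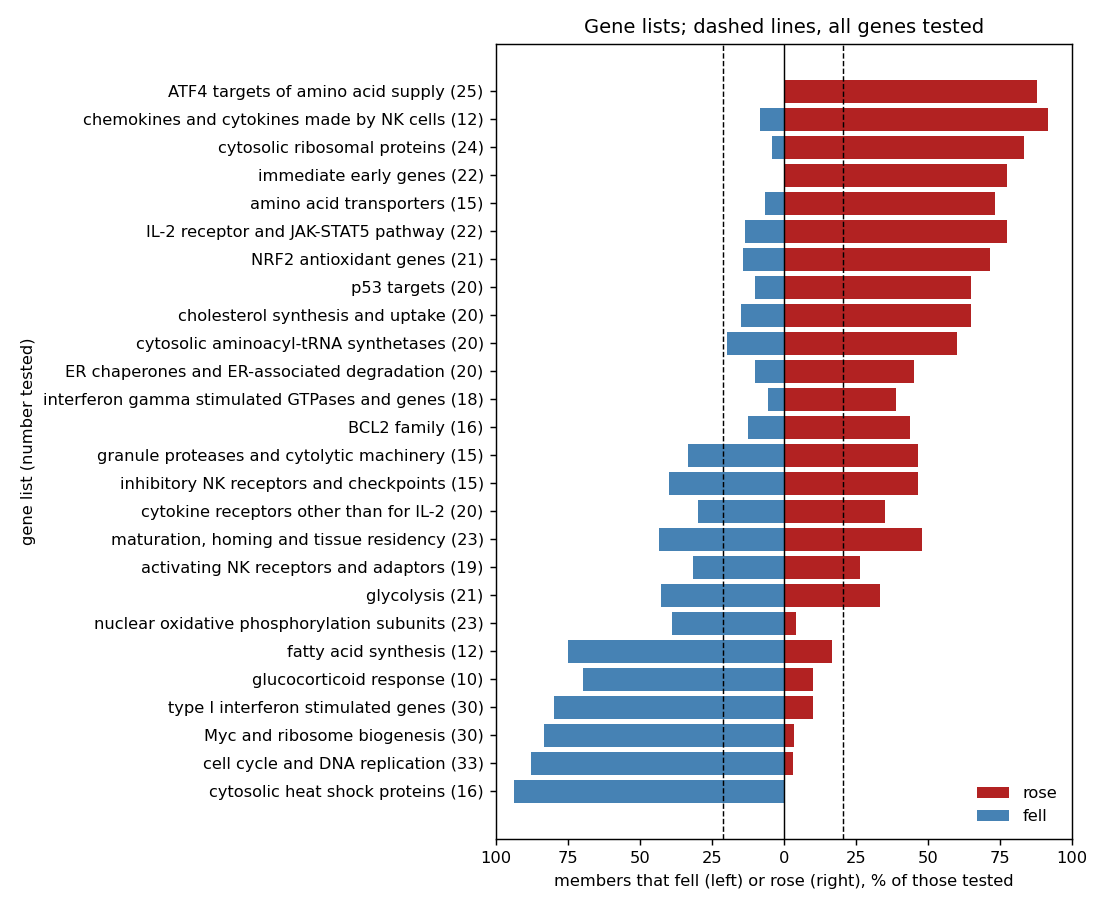
Share of tested members that rose (red, to the right) and fell (blue, to the left) for 26 gene lists, in percent, with the number tested beside each name. Dashed lines mark the shares over all 17455 genes, 20.6% and 21.1%; heat shock, cell cycle, ribosome biogenesis and interferon lists extend furthest to the left, and cytokine, ATF4 and ribosomal protein lists furthest to the right.

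The largest folds joined genes of the lists with genes outside them. Ppp2r2c, a regulatory subunit of phosphatase 2A, had no count in any fresh library and 68.3, 55.0, 45.5 and 50.4 CPM in monoculture. Bcat1, which transaminates branched-chain amino acids, likewise went from 0 in all 4 fresh libraries to 7.18, 2.88, 6.02 and 4.69 CPM. The sodium channel subunit Scn3b reached 7.52, 8.36, 6.15 and 9.68 CPM from at most 0.0772 CPM, and the secreted protein Nxph4 5.40, 6.28, 4.55 and 5.30 CPM from at most 0.154 CPM. Apol9b, an apolipoprotein L gene with a near-identical copy, went from 0.506, 0.614, 0 and 0.134 CPM to 19.2, 26.7, 19.8 and 26.0 CPM.

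Among the deepest falls were genes known from red cell precursors. Rhag, a membrane protein of red cells, went from 15.2, 22.0, 46.9 and 54.4 CPM to 0, 0, 0.0866 and 0.0469 CPM. Cldn13, found in erythroblasts of the mouse, and Cd248, a stromal cell surface protein, were at 5.68 to 16.0 and 4.48 to 5.70 CPM in fresh cells and had no count in any monoculture. Tmem56 (3.80 to 18.9 CPM) and Reps2 (5.91 to 10.5 CPM) also had none. Car1, a carbonic anhydrase abundant in red cells, fell from 645, 763, 956 and 893 CPM to 3.42, 0.719, 0.563 and 1.94 CPM. Ces2g, a carboxylesterase, fell from 131, 172, 208 and 221 CPM to 0.547, 0.221, 0.173 and 0.0469 CPM, and Sh3tc2 from 28.0, 26.9, 35.5 and 30.2 CPM to at most 0.137 CPM. Genes of the largest folds were named only where the groups did not overlap, so that trait was set by the naming rule. Car1, named for its loss of CPM, did not overlap either. The immunoglobulin gene Ighg1 varied widely in fresh cells (44.5, 7.83, 5.05 and 89.5 CPM), and its fall did not pass the test without monoculture male 5 (adjusted p = 0.0800).

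The largest gains and losses of CPM lay in abundant genes. Eef1a1, the elongation factor, gained most, from 6635, 6644, 7006 and 7308 CPM to 9831, 8899, 9631 and 9790 CPM (0.56 ± 0.07). Tpt1, a growth-related protein, rose from 1659.7 ± 94.1 to 2902 ± 126 CPM (SD, n = 4) (0.90 ± 0.07), and Myh9, a motor of the immune synapse, from 1541.8 to 2836.4 CPM (0.97 ± 0.08). On the list for adhesion and the synapse the actin bundler Lcp1 rose with it (1030.4 to 1819.5 CPM, 0.91 ± 0.07), Actb stayed at 6645.1 and 6503.6 CPM (adjusted p = 0.499), and 8 of 20 members rose and 7 fell.

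Epithelial markers, near 0 in fresh cells, rose in 5 of 7 cases, and the trace of Panc02 RNA is given beside them. Krt8 was at 0, 0, 0 and 0.134 CPM in fresh cells and at 1.85, 4.70, 1.75 and 7.69 CPM in monoculture, and at 1437.7 CPM in Panc02 cells. A trace of 0.335%, the highest among the monocultures, would give 4.82 CPM of Krt8. Monoculture female 1 had 1.85 CPM of Krt8 and a measured trace of 0%. That 0% is a median over 29 genes in the monoculture with the lowest total (14624113 counts), where a small trace can go uncounted. The part of the trace in these rises was not tested. Cdh1, the adhesion molecule E-cadherin, rose from 1.13, 0.307, 0.656 and 2.07 CPM to 9.71, 11.8, 7.04 and 9.68 CPM (3.17 ± 0.39), and the same trace would give 0.523 CPM of it. Epcam rose from 0.519 to 4.02 CPM on average and was at 0.982 CPM in Panc02 cells. Over the 315 different listed genes that rose, the trace would give more than 10% of the rise for 9.

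The change with culture was alike in female and male libraries for most genes, and a small set differed. Of 19623 genes tested for a difference between the sexes in the change, 94 changed to a greater log2 value in females (0.479%) and 229 to a smaller one (1.17%), together 1.65%. Which of these was the larger depended on scaling, with 209 greater and 186 smaller under median-ratio scaling, and on fresh female 1, without which they were 95 and 39. Across the 16668 genes tested in both sexes, the female and male log2 changes had a Pearson correlation of 0.841. Of 4400 genes that passed the test in each sex taken alone, 4324 moved in the same direction and 76 in opposite directions. Gclm, a subunit of the enzyme that starts glutathione synthesis, was at 65.7, 71.2, 129 and 111 CPM in fresh cells and at 95.2, 96.4, 90.3 and 92.8 CPM in monoculture. It rose in females (0.58) and fell in males (-0.34), a difference of 0.87 ± 0.13 (adjusted p = 0.00582). Cblb, a ubiquitin ligase that restrains NK cell activation, moved alike, with 175, 159, 286 and 286 CPM in fresh cells and 211, 226, 214 and 220 CPM in monoculture (difference 0.78 ± 0.12). In both genes the sexes were apart in fresh cells and together in monoculture.

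The opposite sign of difference had the same shape. Trir, an RNA-binding protein, fell in females from 216 and 188 to 129 and 137 CPM and rose in males from 127 and 123 to 147 and 154 CPM (difference -0.87 ± 0.12). Slfn2, which keeps lymphocytes quiescent, was at 167, 155, 96.2 and 89.8 CPM in fresh cells and at 169, 172, 170 and 178 CPM in monoculture (difference -0.82 ± 0.11). Over the 323 genes whose change differed, the female and male means were further apart in fresh than in monocultured cells for 304 (94.1%). Of all genes tested it was 64.9%, with a median gap of 0.28 on the log2 scale in fresh cells and 0.15 in monoculture. The 323 genes were picked by the difference between these same gaps, so setting their share beside that of all genes is not a test. Since each sex has 2 libraries a side, the spread behind these values rests on 4 residual degrees of freedom. Genes of the lists with a sex difference were Socs1 (difference 0.96 ± 0.16), Rora (1.11 ± 0.19) and Apoe (-1.23 ± 0.18). Rora, a factor of innate lymphoid cells, rose from 7.74, 8.21, 13.2 and 15.2 CPM to 62.0, 59.9, 55.1 and 45.2 CPM, and Apoe, a lipid carrier under LXR, fell from 141, 118, 60.8 and 63.0 CPM to 6.22, 6.20, 6.30 and 7.47 CPM.

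**Figure D5:**
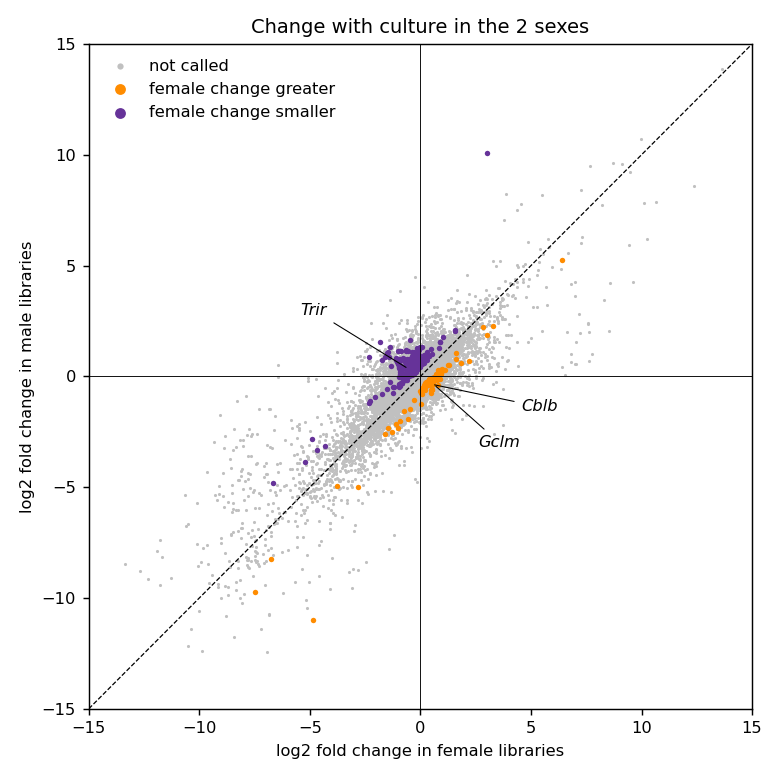
Log2 fold change of monoculture over fresh in female libraries (x axis) and in male libraries (y axis), 2 against 2 libraries each, for the 16668 genes tested in both. Points in orange (female change greater) and purple (female change smaller) passed the test of the difference; most points lie along the dashed diagonal, and Gclm, Cblb and Trir lie in the quadrants of opposite sign.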

How the data were processed

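Raw read counts per gene, as deposited by the authors, were used for 8 of the 22 libraries, 4 fresh and 4 monoculture, with 2 Panc02 culture libraries as a reference. Per the file headers, featureCounts 2.0.6 counted exons of Ensembl release 113 (GRCm39) on the reverse strand, with multi-mapping reads included and mates counted singly, so near-identical genes share counts. The tools HISAT2 2.2.1, SAMtools 1.19.2 and cutadapt 4.4 are named in the submitters' processing notes, and polyadenylated RNA was sequenced in stranded libraries per the labels' protocols. Totals ran from 13025549 to 46170885 counts.

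Counts were tested with edgeR 4.0.16 (R 4.3.3, limma 3.58.1): TMM scaling, filterByExpr, a robust quasi-likelihood F-test by condition with the sexes pooled, and Benjamini-Hochberg adjustment at 0.05 over 17455 genes. The difference between the sexes in the change was the interaction of 4 condition-by-sex means. CPM divides by the library's gene total. The SE was taken from each gene's log2 change and F statistic. On counts simulated for this comparison over 17956 genes, the test recovered 100% of 100 genes changed 2-fold and 100% of 100 changed 4-fold, with 8 false calls. The simulation had a smaller spread between libraries than the fit to the real counts. It changed few genes, all above a minimum level, so this recovery does not give the power of the real test. Gene symbols came from GENCODE M21, and 3 of 955 listed entries had no match. The promoter windows came from RefSeq tables of GRCm38.p6, a different build, and were used for their letters only.

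The members and the 55 gene lists were chosen with earlier results of these data known, and 2 lists (TGF-beta feedback, aryl hydrocarbon receptor) after values were seen here. Besides list members, genes were named by rule: the 10 largest folds in each direction among called genes of at least 5 CPM with no overlap, the 8 largest changes of CPM, and the 5 smallest p-values for a sex difference in each direction. Alternatives were median-ratio (RLE) scaling, DESeq2 1.42.0, no filter, a fit with the co-culture libraries, sex or sample number as a term, either sex alone, a minimum fold of 1.5 and leaving out each library.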

Additional observations from a re-analysis of the deposited data

Results flagged for a closer look

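Among the genes named, 211 were tested for the change with culture. By Dixon's test at 95%, 1 library stood apart from the other 3 of its condition in 16 cases. Chance alone flags about 1 in 20 groups of 4, and each gene gives 2 groups. The 16 cases are thus no more than chance would give. In fresh cells these were Cd226 (37.1 CPM), Flt3l (75.1 CPM) and Itga1 (6.30 CPM) in female 2, Lars (97.2 CPM) in female 1 and Pmaip1 (9.95 CPM) in male 4. In monoculture male 4 stood apart for Farsa (65.5 CPM), Lars (262 CPM), Myc (184 CPM), Shmt2 (609 CPM) and Slc7a5 (935 CPM). Female 2 did so for Bhlhe40 (444 CPM), Herpud1 (284 CPM) and Tnfaip3 (68.7 CPM), male 5 for Apoe (7.47 CPM) and Deptor (2.13 CPM), and female 1 for Thy1 (380 CPM).

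For 13 named genes the change with culture differed between the sexes by edgeR's interaction test. The female minus male log2 change was 0.87 for Gclm, 0.78 for Cblb, 0.96 for Socs1, 1.11 for Rora, -0.82 for Slfn2, -0.87 for Trir and -1.23 for Apoe, and these 7 passed the test without any 1 library. The other 6 lost the call without at least 1 library. Il1rl1 (2.15) did so without fresh female 1 (adjusted p = 0.0502) or monoculture female 2 (adjusted p = 0.0505). Slc1a4 (1.11) did so without fresh female 1, fresh male 4 or monoculture female 2, with the largest adjusted p = 0.127. Bcl2 (0.56) reached adjusted p = 0.153, Klra8 (-0.57) 0.134 and Klra9 (-0.55) 0.119, all without fresh male 5, and Sars (-0.54) 0.133 without fresh female 1.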

How the results depend on the processing

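The counts of genes that rose or fell stayed within 1.5 times the reported values under every alternative except the test against a minimum fold of 1.5, which gave 908 genes that rose and 1819 that fell. Leaving out 1 library at a time gave 3166 to 3472 genes that rose and 3420 to 3827 that fell. With the sample number as a replicate block 3502 rose and 3637 fell. Libraries of the same number correlated by 0.1, 0.088, 0.159 and 0.169 after the condition means were removed, and by 0.037, 0.037, 0.128 and 0.128 after condition and sex means were removed. Each correlated best with its own number, which is a hint from the data and not the design.

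Counts of genes whose change differed between the sexes moved more. Those greater in females numbered 94, against 209 with RLE scaling, 506 with DESeq2, 319 with no filter, 215 with the co-culture libraries and 175 with the replicate block. Those smaller in females numbered 229, against 186 with RLE scaling, 396 with DESeq2 and 553 with no filter. Without 1 library they ranged from 36 to 207 and from 39 to 405. The cause was not tested.

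Of the genes named, the direction reversed for Cblb (-0.35), Gclm (-0.34) and Trir (0.32) with male libraries only, as the difference between the sexes implies. The mean Panc02 trace was 0.19% of the Panc02 level with genes of at least 50 CPM and 0.237% with genes of at least 100 CPM. Genes under a few CPM have wide errors, and 2 libraries per sex and side limit the tests of a sex difference.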

Other observations

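Neutrophil markers varied more between libraries of 1 condition than between conditions. Their summed level was 25.3, 80.9, 187 and 522 CPM in fresh cells of female 1, female 2, male 4 and male 5, and 25.8, 82.3, 76.3 and 442 CPM in the monocultures of the same numbers. Of 10 neutrophil markers tested 3 fell and none rose. Of 19 replication-dependent histone genes tested 4 rose (21.1%) and 1 fell (5.3%), with a median log2 change of -0.02. Of all genes 20.6% rose and 21.1% fell. The listed histone genes summed to only 63 to 104 CPM in fresh cells and 148 to 202 CPM in monoculture. These low sums come from libraries of polyadenylated RNA, and whether histone genes followed the cell cycle list cannot be read from them. Genes of the lysosome and of autophagy rose in 10 of 22 cases and fell in 3.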
